A study of Mus musculus with 12 samples.

Results

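Ribosome biogenesis genes and MYC targets were compared between hematopoietic stem cells (HSC) of Osmr-/- mice and of wild-type (WT) mice. The gene set was given as 47 symbols, which were looked up in the deposited expression table. All 47 were found among its 43279 genes, and all 47 were among the 13358 genes tested, which had 10 or more normalised reads in 5 or more of the libraries. The libraries came from 5 Osmr-/- mice, numbered 1, 2, 3, 5 and 6 in the labels, and from 6 WT C57BL/6 mice, numbered 1 to 6. All mice were adult and naive, and each library came from a different mouse, so the p-values measure the spread between mice. In the fit on genotype alone, that spread includes any difference between label numbers 1 to 3 and 4 to 6. Osmr encodes the receptor chain that pairs with gp130 to receive oncostatin M. The Osmr-/- label names no cell-type-specific driver, so stem cells and bone-marrow niche are both of that genotype. A 12th labelled sample, Osmr-/- number 4, was not analysed here. From each mouse 1000 lineage-negative, KIT-positive, SCA1-positive cells without surface FLT3 and CD48 were sorted, after crushing the leg and hip bones and enriching KIT-positive cells. Per the study's design text this gate holds both long-term and short-term reconstituting stem cells. The polyadenylated RNA was amplified with a SMART-Seq v4 kit. A bulk library of this kind cannot tell fewer cells of a type apart from less RNA per cell.

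MYC forms a dimer with MAX that binds the E-box CACGTG and raises transcription of genes for cell growth, among which ribosome biogenesis genes are prominent. In the nucleolus, RNA polymerase I transcribes ribosomal RNA, small nucleolar ribonucleoproteins (snoRNPs) guide its modification, and separate sets of assembly factors build the small and the large subunit. Hematopoietic stem cells are known for a low rate of protein synthesis, and MYC level in them is known to influence the balance of self-renewal and differentiation.

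The E-box sequence shows which of these genes carry the letters that MYC and MAX bind near an annotated start site. RefSeq promoters on GRCm38.p6, each running from 250 bases before to 50 bases after a start site, were matched for 39 of the 47 genes. There were 48 such promoters in all. No promoter was matched for Myc, Npm1, Tcof1, Fbl, Rrp12, Bop1, Rrs1 and Srm, so the motif was not searched for these. CACGTG reads the same on both strands, so 1 search covered both, and no other motif was searched. It was found for 14 of the 39 genes, or 35.9%, against 8.91% of 17491 protein-coding genes. Counted by promoter, 17 of 48 held it, or 35.4%, against 7.15% of all 32851 RefSeq promoters. Promoters that overlap were counted separately, so the same CACGTG can be counted more than once. A match describes the letters only. The median log2 fold change, Osmr-/- over WT, was -0.17 for the 14 genes with the motif, 9 of which were below 0. It was -0.42 for the 25 genes without it, 18 of which were below 0. The 4 promoters shown belong to the genes that are given below in every library and hold the motif, 1 for each gene, and capitals mark CACGTG. Of 3 Eif5a promoters with the motif, the one shown has it closest to the start site. The one shown overlaps chr11:69921226-69921525, where the same CACGTG begins 185 bases before that promoter's own start site. In the Eif5a promoter, chr11:69921337-69921636 on the minus strand, the motif begins 74 bases before the start site. In the Wdr43 promoter, chr17:71615965-71616264 on the plus strand, it begins 17 bases after the start site. In the Mybbp1a promoter, chr11:72441077-72441376 on the plus strand, it begins 40 bases after, and in the Max promoter, chr12:76962199-76962498 on the minus strand, 3 bases before.
Eif5a promoter: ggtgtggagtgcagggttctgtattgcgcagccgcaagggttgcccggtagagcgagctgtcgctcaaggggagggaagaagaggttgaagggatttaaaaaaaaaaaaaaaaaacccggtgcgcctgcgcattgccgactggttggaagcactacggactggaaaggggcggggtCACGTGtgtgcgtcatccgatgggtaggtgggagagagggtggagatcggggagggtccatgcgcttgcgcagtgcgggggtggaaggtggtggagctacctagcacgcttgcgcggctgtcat
Wdr43 promoter: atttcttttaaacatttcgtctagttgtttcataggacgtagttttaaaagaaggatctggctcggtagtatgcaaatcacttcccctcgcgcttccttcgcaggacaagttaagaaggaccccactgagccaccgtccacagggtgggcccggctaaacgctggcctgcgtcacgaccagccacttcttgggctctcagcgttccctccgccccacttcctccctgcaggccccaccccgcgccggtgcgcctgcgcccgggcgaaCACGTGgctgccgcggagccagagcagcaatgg
Mybbp1a promoter: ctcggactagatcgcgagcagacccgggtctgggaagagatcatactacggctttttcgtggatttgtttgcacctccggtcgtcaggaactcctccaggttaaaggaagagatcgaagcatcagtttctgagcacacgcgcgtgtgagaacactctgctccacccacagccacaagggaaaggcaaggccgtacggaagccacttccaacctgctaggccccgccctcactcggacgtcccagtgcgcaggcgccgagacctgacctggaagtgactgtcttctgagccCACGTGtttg
Max promoter: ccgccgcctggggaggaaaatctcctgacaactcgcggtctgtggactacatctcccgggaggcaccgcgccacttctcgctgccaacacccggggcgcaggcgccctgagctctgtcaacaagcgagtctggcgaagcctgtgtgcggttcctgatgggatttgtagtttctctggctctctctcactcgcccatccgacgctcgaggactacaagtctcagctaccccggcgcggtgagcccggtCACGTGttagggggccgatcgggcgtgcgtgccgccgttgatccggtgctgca

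The libraries held 9.50 to 11.2 M reads (M stands for mega) in Osmr-/- HSC and 9.89 to 22.1 M reads in WT HSC, with WT 1 the deepest. Osmr had 4 reads over the 5 Osmr-/- libraries and 13 over the 6 WT libraries, so it gave no check of the genotype labels at this depth. All 10 gate and stem cell markers passed the filter and none had a limma adjusted p under 0.05. Kit was at 4455 ± 579 (SD, n = 5) in Osmr-/- HSC and 3740 ± 460.5 (SD, n = 6) in WT HSC. Of the 10, 6 were above 0 and 4 below on the log2 scale, from Slamf1 at -1.02 to Meis1 at 0.53. At an unadjusted limma p under 0.05, 1 was higher (Meis1) and 1 lower (Procr), against 7.5% and 10.5% of all genes. Means in Osmr-/- and WT HSC were 4657 and 3241 for Meis1, and 323 and 543 for Procr. The authors' deposited comparison called 1 of the 10 higher and 0 lower by adjusted p, against 1.67% and 2.79% of all genes. Transcripts of the 2 proteins that the gate excludes were present. Flt3 had means of 389 in Osmr-/- HSC and 504 in WT HSC, and Cd48 of 853 and 637. The progenitor marker Cd34 had means of 4597 and 4869. None of these had a limma adjusted p under 0.05. Trac and Ctsg, markers of T cells and granulocytes, were at 0 in all 11 libraries, but Nkg7 of the T and NK list had means of 5419 in Osmr-/- HSC and 5239 in WT HSC. Prtn3 of the granulocyte list had means of 4831 in Osmr-/- HSC and 3861 in WT HSC. Osmr-/- 3 stood apart by granulocyte and monocyte genes: 13 such genes summed to 24015 normalised counts there, against 4754 to 6092 in the other Osmr-/- libraries and 3552 to 5525 in WT. S100a8 alone reached 10780 in Osmr-/- 3. It was at 271, 346, 47.4 and 74.2 in Osmr-/- 1, 2, 5 and 6, and at 19.4 to 180 in WT. Libraries numbered 1 to 3 and 4 to 6 also differed in both genotypes, although the labels name no batch, so values within each number set are given below.

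Across the gene set, differences between the genotypes were modest and ran in both directions. On the log2(normalised count + 1) scale, 18 of the 47 genes had a higher mean in Osmr-/- HSC and 29 a lower one. The median log2 fold change was -0.27, against -0.05 over all genes tested. The share below 0 was 61.7%, against 53.2% of all genes tested. None of the 47 passed limma at a Benjamini-Hochberg adjusted p under 0.05 over all genes tested, where 0.00749% of all genes were called higher and 0.015% lower. At an unadjusted p under 0.05, limma placed 2 genes higher (Ddx21 and Wdr43) and 10 lower (Polr1c, Eif5a, Nop16, Odc1, Ncl, Wdr12, Wdr74, Srm, Pa2g4 and Prmt1). The shares of all genes past that limit were 7.5% higher and 10.5% lower, against 2 and 10 of 47. The 10 were 6 without Osmr-/- 3 and 5 without WT 1, where the shares of all genes were 8.42% and 8.48%. The 2 were 1 without Osmr-/- 3 (5.05% of all genes), 1 without WT 5 (6.2%) and 4 without Osmr-/- 5 (7.03%). For 31 of the 47, leaving out 1 library turned the sign of the log2 fold change or moved it by over 1.5 times. The groups overlapped for every one of the 47 genes. Over all genes tested, 1.09% lay wholly higher and 1.42% wholly lower in Osmr-/- HSC.

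**Figure D1:**
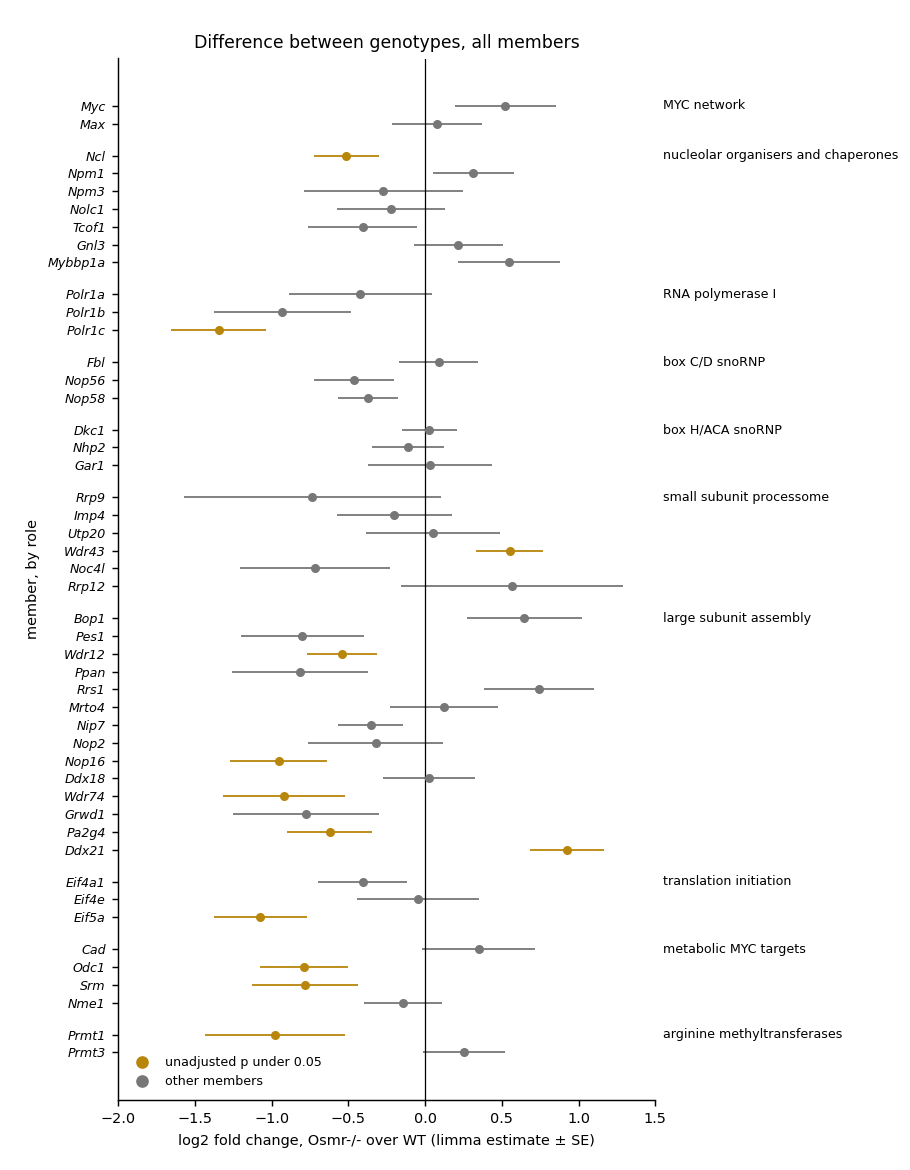
Log2 fold change, Osmr-/- over WT, of the 47 genes by role, as limma's estimate with its standard error on the horizontal axis (n = 5 Osmr-/- and 6 WT libraries). Estimates run from -1.35 for Polr1c to 0.93 for Ddx21, and the 12 ochre points have an unadjusted p under 0.05.

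The calls depended on the tool. The edgeR quasi-likelihood test on recovered reads called 0 of the 47 at an adjusted p under 0.05, with a background of 0.00749% in each direction. At an unadjusted p under 0.05 it placed 3 genes higher and 10 lower, against 6.66% and 8.77% of all genes. DESeq2 on recovered reads called Ddx21 higher (1.53% of all genes were called higher) and Polr1c and Eif5a lower (2.83% were called lower). In the authors' deposited table, made with DESeq2, the same 3 genes passed an adjusted p under 0.05. Log2 fold changes in the authors' deposited table were 0.86 for Ddx21 (adjusted p 0.0148), -1.06 for Polr1c (adjusted p 0.0178) and -1.05 for Eif5a (adjusted p 0.0152). That table called 1.67% of genes higher and 2.79% lower in Osmr-/- HSC. With a limma covariate for the number set, Ddx21 was higher with an adjusted p of 0.0485. In that fit Polr1c (0.0430), Nop16 (0.0416) and Eif5a (0.0380) were lower by adjusted p, against a background of 0.996% higher and 1.53% lower.

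The libraries of 1 genotype differed among themselves as well. In Osmr-/- HSC, 28, 27, 23, 35 and 31 of the 47 genes lay below the WT mean in libraries 1, 2, 3, 5 and 6. The WT libraries had between 16 and 31 genes below that mean, with the fewest in WT 1 and the most in WT 6. Osmr-/- 6 was the lowest of all 11 libraries for 14 genes. WT 4 was the highest for 10 and WT 1 for 9. The gene set was therefore not uniformly lower in any library.

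**Figure D2:**
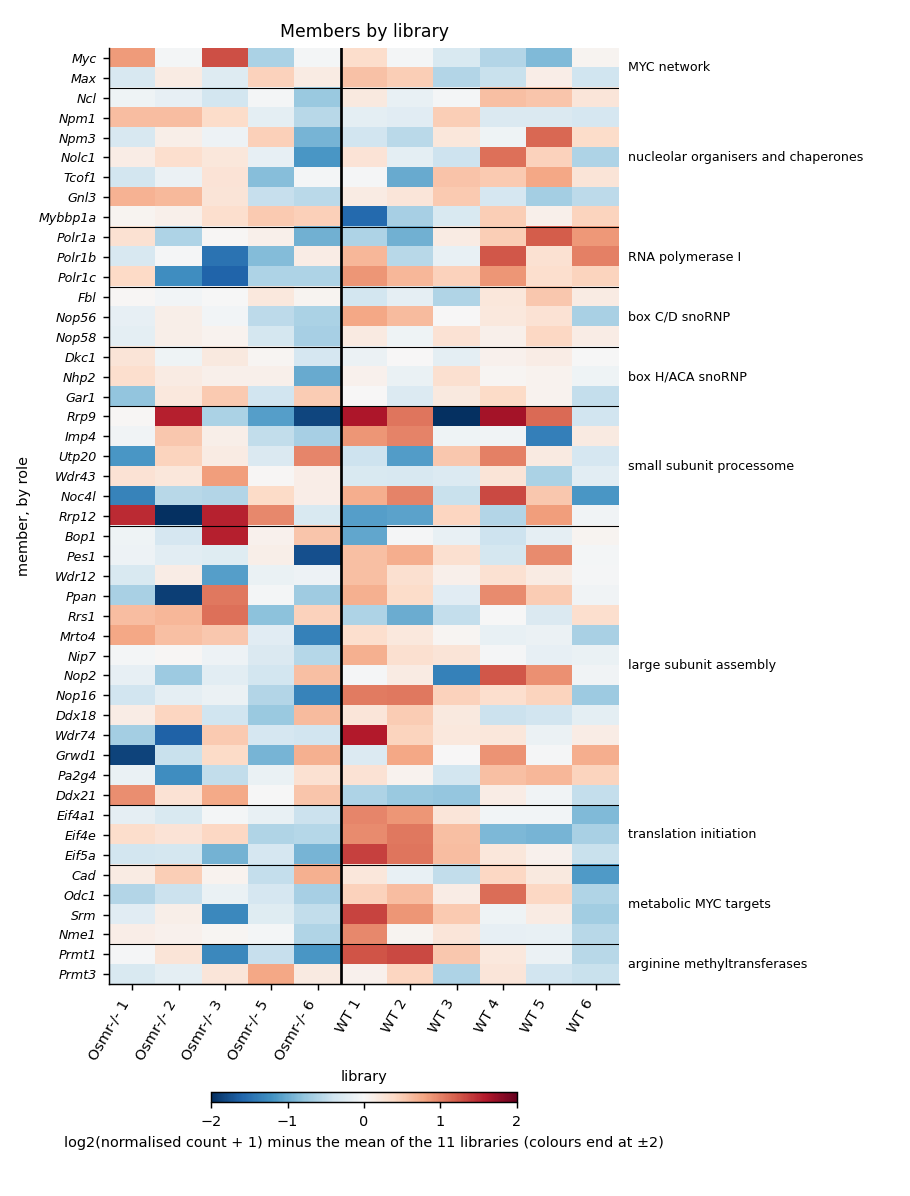
Level of each of the 47 genes in each library, as log2(normalised count + 1) minus the gene's mean over the 11 libraries, with genes in rows by role, the 5 Osmr-/- libraries on the left and the 6 WT libraries on the right. Red is above and blue below the mean, with colours ending at 2 either side, and Osmr-/- 6 has the lowest level of all libraries for 14 genes.

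Myc, the transcription factor that gives the set its name, had 3399, 1834, 4593, 1212 and 1826 normalised counts in Osmr-/- 1, 2, 3, 5 and 6, against a lowest, median and highest of 1015, 1670 and 2387 in WT. Osmr-/- 1 and 3 lay above every WT library and the other 3 lay within the WT range. The means were 2573 ± 1389 (SD, n = 5) in Osmr-/- HSC and 1659 ± 499.6 (SD, n = 6) in WT HSC. The log2 fold change was 0.52 with a standard error of 0.33, and limma's adjusted p was 0.418. Without Osmr-/- 3, the library with the highest sum of granulocyte and monocyte genes, it was 0.27, and without Osmr-/- 5 it was 0.75. Numbers 1 to 3 gave 0.71 and numbers 4 to 6 gave 0.13. Max, the dimer partner, had 291, 410, 304, 500.3 and 409 in Osmr-/- 1, 2, 3, 5 and 6, against a lowest, median and highest of 243, 339 and 545 in WT. All 5 Osmr-/- values lay within the WT range, and the log2 fold change was 0.08 with a standard error of 0.30 (limma's adjusted p 0.920). Myc lies on GRCm38 chromosome 15 from 61985391 to 61990374, and Max on chromosome 12 from 76937269 to 76962201.

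RNA polymerase I subunits were lower in mean in all 3 cases, with a median log2 fold change of -0.93. Polr1c encodes an assembly subunit shared by RNA polymerases I and III. It had 856, 273, 213, 424 and 423 normalised counts in Osmr-/- 1, 2, 3, 5 and 6, against a lowest, median and highest of 820, 960 and 1193 in WT. The groups overlapped only through Osmr-/- 1, whose value exceeded the lowest WT value, and 5 of 6 WT libraries lay above every Osmr-/- library. The means were 438 ± 252 (SD, n = 5) in Osmr-/- HSC and 1001 ± 162 (SD, n = 6) in WT HSC, a log2 fold change of -1.35 with a standard error of 0.31. This was the lowest unadjusted p of the 47 genes, and limma's adjusted p over all genes was 0.0816. The difference was present within both number sets, at -1.48 in numbers 1 to 3 and -1.17 in numbers 4 to 6. Polr1c lies on chromosome 17 from 46243920 to 46248054. Polr1b, the second-largest subunit, averaged 93.5 ± 38.3 in Osmr-/- HSC and 181 ± 80.8 in WT HSC (SD, n = 5 and 6), with a log2 fold change of -0.93 ± 0.45 (SE) and limma's adjusted p at 0.287. Polr1a, the catalytic subunit, averaged 105 ± 35.5 in Osmr-/- HSC and 153 ± 81.5 in WT HSC. At -0.42 over all libraries, it stood at 0.37 among numbers 1 to 3 and at -1.28 among numbers 4 to 6, so the sets pointed in opposite directions.

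Among the 7 nucleolar organisers and chaperones, 3 were above 0 and 4 below. At an unadjusted limma p under 0.05, 1, Ncl, was lower, against 10.5% of all genes. Ncl encodes nucleolin, which binds ribosomal RNA and its genes. It had 7076, 6746, 5835, 7378 and 4493 normalised counts in Osmr-/- 1, 2, 3, 5 and 6, against a lowest, median and highest of 6811, 8778 and 11389 in WT. Osmr-/- 6 was the lowest of all, and 4 of 6 WT libraries lay above every Osmr-/- library. Its log2 fold change was -0.51 with a standard error of 0.21, and limma's adjusted p was 0.232. It was -0.86 among numbers 4 to 6 and -0.21 among numbers 1 to 3. Ncl exons also hold snoRNA genes, and how reads there were counted is not known. Mybbp1a, which encodes a nucleolar MYB-binding protein, had 803, 830, 985, 1111 and 1079 in Osmr-/- 1, 2, 3, 5 and 6, against a lowest, median and highest of 262, 730 and 1093 in WT. WT 1 was the lowest of all, and 3 WT libraries lay below every Osmr-/- library. The log2 fold change was 0.54 with a standard error of 0.33 (limma's adjusted p 0.407). It was 0.28 without WT 1 and 0.69 without WT 4. Exons of Mybbp1a overlap Spns2 on the opposite strand.

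The other nucleolar genes differed little relative to their spread. Npm1, which encodes the abundant chaperone nucleophosmin, averaged 23800 ± 7752 in Osmr-/- HSC and 18626 ± 4740 in WT HSC, with a log2 fold change of 0.32. Its Osmr-/- libraries split by number, with 26098 to 30748 in libraries 1 to 3 and 13762 to 17648 in libraries 5 and 6. Gnl3, which encodes nucleostemin, averaged 3922 ± 1499 in Osmr-/- HSC and 3310 ± 1077 in WT HSC, at 0.22. Tcof1, which encodes the ribosomal gene transcription factor treacle, was at -0.41, Npm3, a relative of Npm1, at -0.27, and Nolc1, a snoRNP chaperone, at -0.22. None of these 5 had an unadjusted limma p under 0.05.

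The 6 core snoRNP genes lay between -0.46 and 0.09. In box C/D particles, which methylate ribosomal RNA, the scaffold genes Nop56 and Nop58 were at -0.46 and -0.37. The methyltransferase gene Fbl averaged 432 ± 32.1 in Osmr-/- HSC and 420 ± 122 in WT HSC, at 0.09. In box H/ACA particles, which convert uridine to pseudouridine, the synthase gene Dkc1 averaged 2337 ± 372 in Osmr-/- HSC and 2275 ± 199 in WT HSC, at 0.03 with a standard error of 0.18. Gar1 was at 0.03 and Nhp2 at -0.11. The H/ACA genes were the role with the smallest range of log2 fold changes among those with 3 or more genes.

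Among the 6 genes of the small subunit processome, the particle that cuts and folds the small subunit's RNA, 3 were above 0 and 3 below. Wdr43, a component of its early-binding part, had 1699, 1618, 2462, 1404 and 1511 normalised counts in Osmr-/- 1, 2, 3, 5 and 6, against a lowest, median and highest of 891, 1130 and 1655 in WT. Only WT 4 reached into the Osmr-/- range, and the other 5 WT libraries lay below every Osmr-/- library. The log2 fold change was 0.55 with a standard error of 0.22, and limma's adjusted p was 0.209. Numbers 1 to 3 gave 0.75, numbers 4 to 6 gave 0.27, and it was 0.42 without Osmr-/- 3 and 0.65 without WT 4. Wdr43 exons overlap an antisense gene, CT010429.2. Noc4l was at -0.72, Imp4 at -0.20 and Utp20 at 0.05. Rrp9 and Rrp12, both scarce here, had the widest spread of the set. Rrp9 ran from 20.5 to 225 in Osmr-/- HSC and from 8.06 to 243 in WT HSC, and Rrp12 from 8.28 to 119 in Osmr-/- HSC and from 18.2 to 72.6 in WT HSC. Their standard errors, 0.84 and 0.73, were larger than their log2 fold changes of -0.73 and 0.57.

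Large subunit assembly was the biggest role, with 14 genes, of which 5 were above 0 and 9 below. Ddx21, which encodes an RNA helicase of ribosomal RNA synthesis and processing, had 2153, 1373, 1904, 1127 and 1667 normalised counts in Osmr-/- 1, 2, 3, 5 and 6, against a lowest, median and highest of 660, 775 and 1251 in WT. The groups overlapped only through Osmr-/- 5, which lay below WT 4, and 5 of 6 WT libraries lay below every Osmr-/- library. The means were 1645 ± 409 (SD, n = 5) in Osmr-/- HSC and 868 ± 240 (SD, n = 6) in WT HSC, a log2 fold change of 0.93 with a standard error of 0.24 and limma's adjusted p at 0.105. Numbers 1 to 3 gave 1.36, numbers 4 to 6 gave 0.41, and it was 0.82 to 1.05 when each library was left out. Nop16, which encodes a nucleolar protein of the early large-subunit particle, had 1245, 1428, 1504, 1084 and 643 in Osmr-/- 1, 2, 3, 5 and 6, against a lowest, median and highest of 978, 2231 and 3366 in WT. WT 6 lay among the Osmr-/- libraries and the other 5 WT libraries lay above all of them. The log2 fold change was -0.95 with a standard error of 0.32 (limma's adjusted p 0.154), and it was nearly equal in both number sets, at -1.08 in numbers 1 to 3 and -0.98 in numbers 4 to 6. Ddx21 lies on chromosome 10 from 62580251 to 62602281, and Nop16 on chromosome 13 from 54584185 to 54590090.

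The partners Bop1, Pes1 and Wdr12, whose proteins form 1 complex in large-subunit maturation, did not share a direction. Wdr12 had 1800, 2462, 1030, 2017 and 2068 normalised counts in Osmr-/- 1, 2, 3, 5 and 6, against a lowest, median and highest of 2166, 2616 and 3355 in WT. Osmr-/- 3 was the lowest of all, 4 WT libraries lay above every Osmr-/- library, and the log2 fold change was -0.54 with a standard error of 0.23 (limma's adjusted p 0.243). Without Osmr-/- 3 it was -0.34, and without Osmr-/- 2 it was -0.65. Pes1 was at -0.80 with a standard error of 0.40 and limma's adjusted p of 0.306. It was at -0.47 without Osmr-/- 6 and at -0.94 without WT 4. Bop1 had 194, 162, 603, 217 and 301 in Osmr-/- 1, 2, 3, 5 and 6, against a lowest, median and highest of 99.3, 183 and 212 in WT. Its high value in Osmr-/- 3 stood well above the other 10 libraries. The log2 fold change of 0.65 (SE 0.38, limma's adjusted p 0.386) was 0.35 without that library and 0.82 without Osmr-/- 2. Exons of Bop1 and Wdr12 overlap opposite-strand genes, Mroh1 and Carf.

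Rrs1, which helps bring the smallest ribosomal RNA into the large subunit, had 447, 464, 626, 166 and 403 normalised counts in Osmr-/- 1, 2, 3, 5 and 6, against a lowest, median and highest of 146, 225 and 369 in WT. Osmr-/- 5 lay among the WT libraries and the other 4 lay above all of them. Rrs1 had a log2 fold change of 0.74 with a standard error of 0.36 (limma's adjusted p 0.292), but the number sets went opposite ways, at 1.49 in numbers 1 to 3 and -0.19 in numbers 4 to 6. Wdr74 and Pa2g4 had an unadjusted limma p under 0.05 at -0.92 and -0.62, with adjusted p-values of 0.250 and 0.259. Ppan was at -0.81, with -0.46 without Osmr-/- 2 and -1.19 without Osmr-/- 3. Grwd1 was at -0.78, with -0.42 without Osmr-/- 1 and -1.06 without Osmr-/- 6. Nop2 was at -0.32, with -0.10 without WT 4 and -0.62 without WT 3. Pa2g4 was at -0.40 without Osmr-/- 2 and at -0.78 without Osmr-/- 6, and Nip7 was at -0.35 over all libraries. Mrto4 at 0.12 and Ddx18 at 0.02 differed least. A search for names made of a symbol plus -ps found 2 pseudogenes for Mrto4 and 1 for Npm3. Copies under other names were not searched for any of the 47 genes. How the counting treated reads that match such copies is not known.

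Eif5a had the largest absolute difference in counts among the genes with an unadjusted p under 0.05. It encodes the hypusine-bearing factor that keeps ribosomes moving. It had 7479, 7565, 4975, 7587 and 5036 normalised counts in Osmr-/- 1, 2, 3, 5 and 6, against a lowest, median and highest of 7087, 12990 and 24720.2 in WT. Only WT 6 reached into the Osmr-/- range, and the WT libraries spread more widely than the Osmr-/- ones. The means were 6529 ± 1391 (SD, n = 5) in Osmr-/- HSC and 14706 ± 6660 (SD, n = 6) in WT HSC, a log2 fold change of -1.07 with a standard error of 0.30 and limma's adjusted p at 0.120. Libraries numbered 1 to 3 gave -1.57, with a WT mean of 19914, and those numbered 4 to 6 gave -0.59, with a WT mean of 9498. Eif5a lies on chromosome 11 from 69916714 to 69921958. Eif4a1, the helicase of the cap-binding complex, was at -0.41 and Eif4e, the cap-binding protein, at -0.04. Eif4e followed the label number more than the genotype. It averaged 3731 in Osmr-/- libraries and 5380 in WT libraries numbered 1 to 3, and 1949 in Osmr-/- libraries and 1656 in WT libraries numbered 4 to 6.

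**Figure D3:**
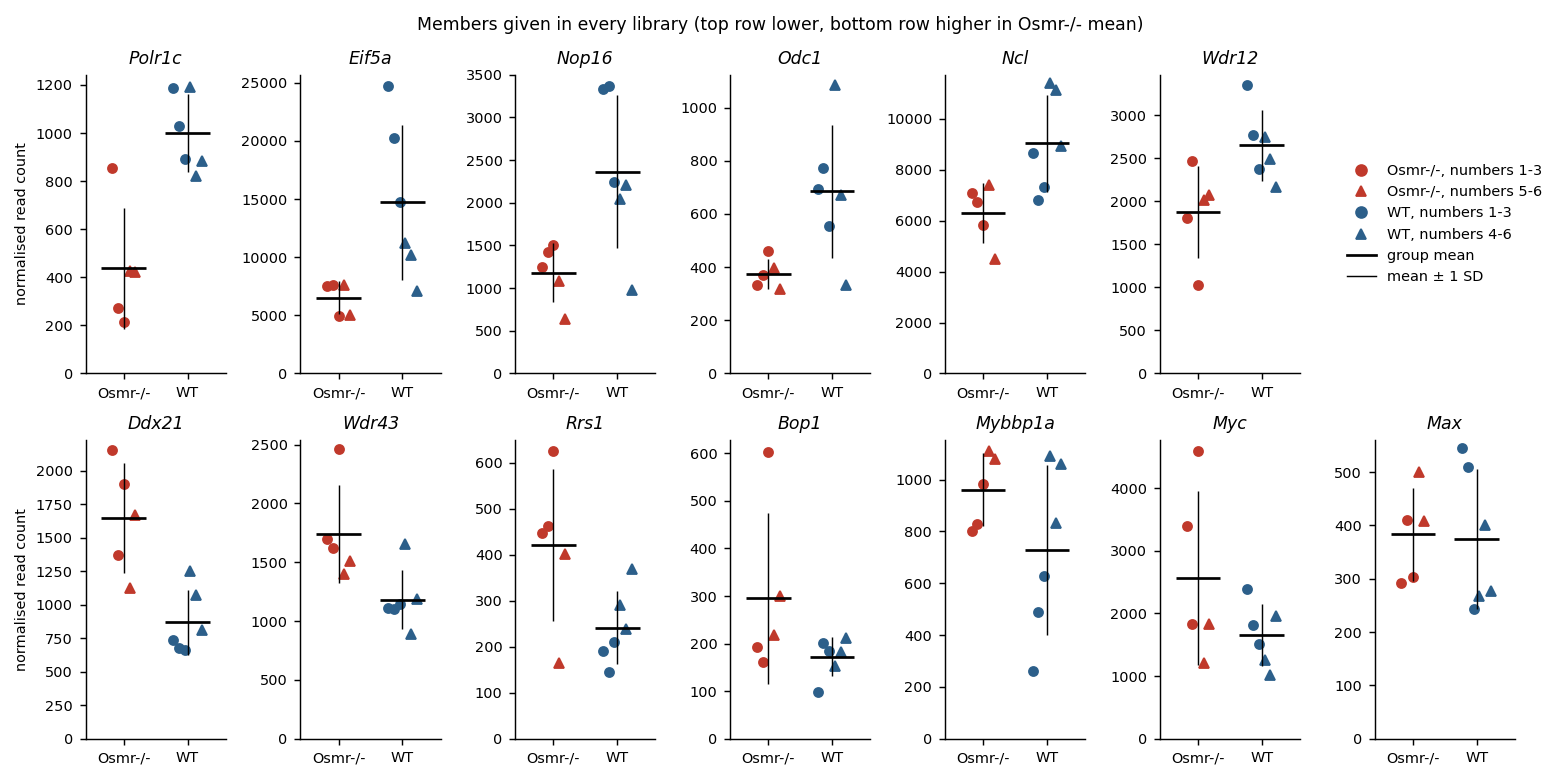
Normalised read count in each library for 13 genes, with the 5 Osmr-/- libraries in red and the 6 WT libraries in blue, circles for label numbers 1 to 3 and triangles for 4 to 6, and bars for the group mean and 1 SD. The 6 genes of the top row have lower Osmr-/- means and the genes of the bottom row higher ones, and in every panel the groups overlap.

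Of the 4 metabolic MYC targets, 2 were lower at an unadjusted limma p under 0.05, against 10.5% of all genes. Both encode polyamine enzymes. Odc1, the first enzyme of polyamine synthesis, had 334, 371, 460.1, 396 and 316 normalised counts in Osmr-/- 1, 2, 3, 5 and 6, against a lowest, median and highest of 331, 684 and 1086 in WT. WT 6 lay within the narrow Osmr-/- range and the other 5 WT libraries lay above it. Odc1 had a log2 fold change of -0.79 with a standard error of 0.29 (limma's adjusted p 0.181), with -0.79 in numbers 1 to 3 and -0.81 in numbers 4 to 6. Srm, spermidine synthase, averaged 1002 ± 319 in Osmr-/- HSC and 1822 ± 892 in WT HSC, at -0.78 with an adjusted p of 0.254, and numbers 1 to 3 gave -1.39 and numbers 4 to 6 gave -0.16. Cad, the first enzyme of pyrimidine synthesis, was at 0.35, and Nme1, a nucleoside diphosphate kinase, at -0.14. The arginine methyltransferase gene Prmt1 averaged 97.6 ± 44.2 in Osmr-/- HSC and 198 ± 101 in WT HSC, at -0.98 with an adjusted p of 0.273. Prmt3, whose protein methylates a small-subunit ribosomal protein, was at 0.25.

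Per kilobase of exon, the level varied widely between the genes and the order at the top differed between the groups. Npm1 had the highest mean, at 8931 normalised counts per kilobase in Osmr-/- HSC and 6989 in WT HSC. In WT HSC Eif5a came next at 6187, with 2747 in Osmr-/- HSC. Nhp2 had 4528 in Osmr-/- HSC and 4685 in WT HSC. At the low end, Polr1a was at 8.82 in Osmr-/- HSC and 12.8 in WT HSC, and Rrp12 at 16.3 in Osmr-/- HSC and 8.77 in WT HSC. Polr1b, at 16.1 in Osmr-/- HSC and 31.2 in WT HSC, was close to Rrp12 in Osmr-/- HSC.

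The genotype difference was compared between the number sets with an interaction term. Numbers 1 to 3 hold 3 Osmr-/- and 3 WT libraries, and numbers 4 to 6 hold 2 and 3. No gene of the 47 had an adjusted interaction p under 0.05 in limma, and the share of all genes was 0%. At an unadjusted p under 0.05 there were 6, Rrs1, Ddx21, Eif4a1, Eif4e, Eif5a and Srm, against 9.85% of all genes. Ddx21, Eif5a and Srm were nearer 0 in numbers 4 to 6 with the same sign, and Rrs1, Eif4a1 and Eif4e changed sign. Within numbers 1 to 3, limma's unadjusted p was under 0.05 for 4 genes higher (8.92% of all genes) and 10 lower (13% of all genes). Within numbers 4 to 6 it was under 0.05 for 0 genes higher (4.42% of all genes) and 8 lower (5.94% of all genes). Polr1c and Nop16 were the only genes of the 47 past that limit in both sets. With genotype in the model, 3 genes were lower in numbers 4 to 6 by limma's adjusted p, Eif4e at a log2 difference of -1.36 (0.00285), Gnl3 at -0.91 (0.00555) and Mrto4 at -0.91 (0.0475), against 4.69% of all genes. None was higher, against 2.61% of all genes, and at an unadjusted p under 0.05 there were 13 lower (12.9% of all genes) and 2 higher (11% of all genes).

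**Figure D4:**
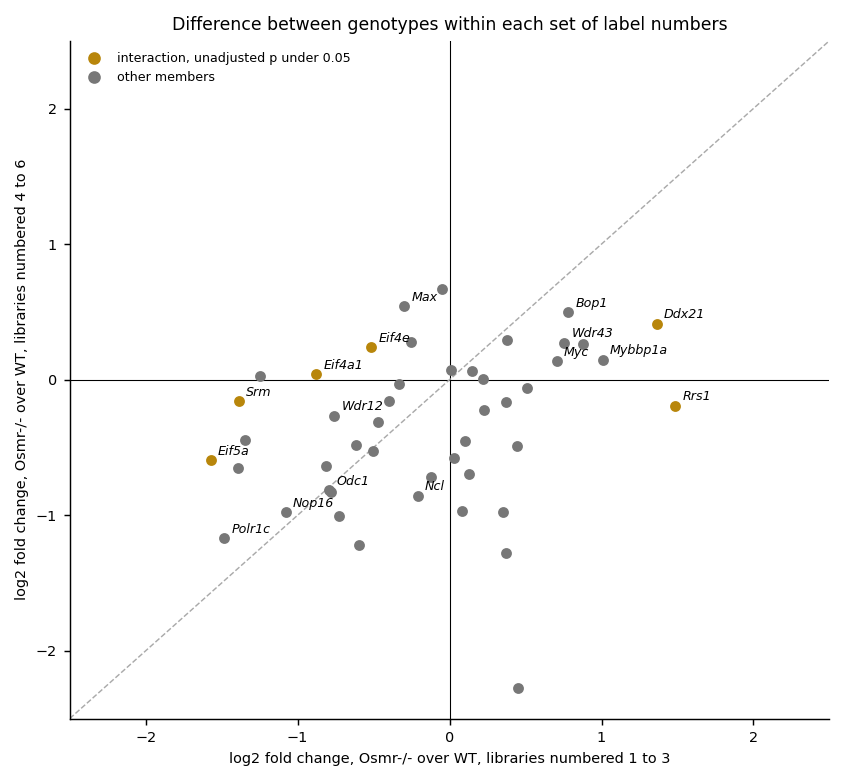
Log2 fold change, Osmr-/- over WT, of each of the 47 genes among libraries numbered 1 to 3 (horizontal axis) and 4 to 6 (vertical axis), with a dashed line of equal values and ochre points for an unadjusted interaction p under 0.05. Polr1c and Nop16 lie far down near the line, Eif5a and Srm lie left of it, and Rrs1 lies at 1.49 and -0.19.

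Other genes of the same pathways, 228 listed by symbol, gave 212 tested genes. Their log2 fold changes, 84 above 0 and 128 below, had a median of -0.11, and limma called 0 in either direction by adjusted p. At an unadjusted p under 0.05, limma placed 14 higher and 29 lower, beside 7.5% and 10.5% of all genes. By adjusted p, the authors' deposited table has 1 of them higher and 15 lower, beside 1.67% and 2.79% of all genes. The groups did not overlap for 1 higher (Naf1) and 2 lower (Rrp1 and Ccnd2), beside 1.09% and 1.42% of all genes. Among MYC network partners, 3 of 11 were above 0. Mycn, the MYC relative, averaged 1343 ± 694 in Osmr-/- HSC and 698 ± 139 in WT HSC (SD, n = 5 and 6), at 0.84 with limma's adjusted p of 0.156. Mxd4 and Mlx, which belong to the wider network, were at -1.42 and -0.65. Among 18 other RNA polymerase I genes, 7 were above 0 and 11 below, and Polr1e was at -0.99 and the shared subunits Polr2k and Polr2e at 1.45 and -0.86. Of 12 other snoRNP factors, 6 were above and 6 below 0. The H/ACA assembly factor Naf1 averaged 701 ± 106 in Osmr-/- HSC and 318 ± 142 in WT HSC. Every Osmr-/- library lay above every WT library for Naf1, with a log2 fold change of 1.25. Its adjusted p was 0.101 in limma and 0.0204 in the authors' deposited table. Nop10, a core H/ACA protein, was at 1.33, and Pih1d1, of a snoRNP assembly complex, at -1.08 with limma's adjusted p of 0.113.

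Assembly factors and translation genes outside the 47 also ran both ways. Of 41 small-subunit factors, 20 were above 0 and 21 below, with Wbscr22 at -1.18, Fcf1 at 0.72 and Nob1 at -0.76. Of 42 large-subunit factors, 16 were above and 26 below. Gltscr2 averaged 354 ± 147 in Osmr-/- HSC and 1056 ± 368 in WT HSC, at -1.59 with limma's adjusted p of 0.0650, and its adjusted p was 0.000685 in the authors' deposited table. Rrp1 averaged 219 ± 63.9 in Osmr-/- HSC and 498 ± 135 in WT HSC. Every Osmr-/- library lay below every WT library for Rrp1, with a log2 fold change of -1.20. Its adjusted p was 0.101 in limma and 0.00488 in the authors' deposited table. Eif6, the factor that keeps large subunits from joining early, was at -0.85. Of 18 translation initiation and hypusination genes 7 were above 0, with Eif3d at -0.82, Eif4g2 at 0.43 and Eif5b at 0.47. Of 8 polyamine genes 2 were above 0, with the antizyme inhibitor Azin1 at 0.77 and the antizyme Oaz1 at -0.72, and the oxidase Paox at -1.31. Of 19 nucleotide and one-carbon genes 8 were above 0, with Ppat at 0.55, Shmt2 at -0.60 and Atic at -1.52. Of 32 other MYC targets 9 were above 0 and 10 had an unadjusted limma p under 0.05 and a lower mean, beside 10.5% of all genes, with Exosc5 at -1.05, Bzw2 at -1.02 and Ccnd2 at -0.70. Of 11 tested genes of nucleolar stress and p53, 6 were above 0, with Cdkn1a at -2.49, Sesn2 at -1.21 and Mdm2 at 0.56. Cdkn1a and Sesn2 were scarce, with means of 25.4 and 24.3 in Osmr-/- HSC and 49.4 and 47.6 in WT HSC.

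**Figure D5:**
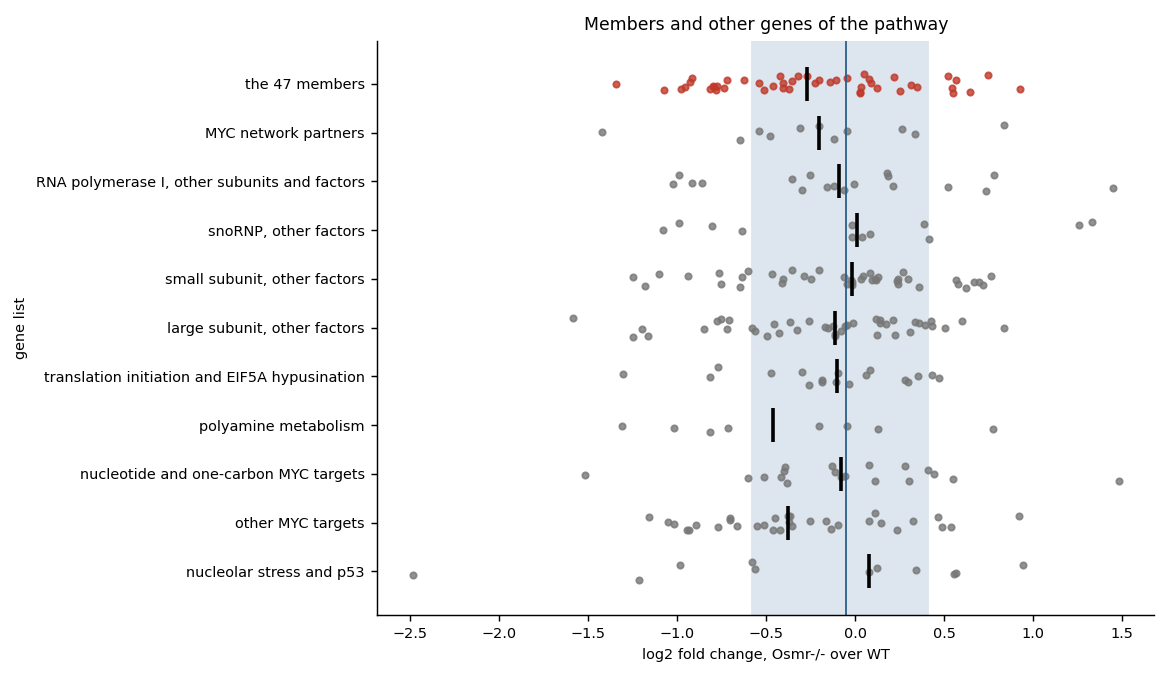
Log2 fold change, Osmr-/- over WT, of the 47 genes (red) and of the tested genes of each other pathway list (grey), with a black bar at each list's median. The blue line is the median of all genes tested, -0.05, and the median of the 47 is at -0.27. The shaded band runs between the quartiles of all genes tested, -0.58 and 0.41, a range for single genes and not for medians of lists.

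Erythroid and mitotic genes also differed between these libraries. The 14 erythroid markers summed to 12412 to 19422 normalised counts in Osmr-/- HSC and 20052 to 62943 in WT HSC. All 13 tested were below 0, with a median of -2.11, and 1 had a limma adjusted p under 0.05. At an unadjusted limma p under 0.05, 11 of the 13 were lower, against 10.5% of all genes. The authors' deposited table called 8 of them lower by adjusted p, against 2.79% of all genes. For 5 of them the groups did not overlap, against 1.42% of all genes. WT 1 to 3 had erythroid sums of 55579 to 62943, and WT 4 to 6 had 20052 to 22595. Car2 and Car1 had the highest means of the list, at 26493 and 8168 in WT HSC and 11416 and 1284 in Osmr-/- HSC. Of 25 mitotic genes tested, 22 were below 0 with a median of -0.91, and limma's adjusted p was under 0.05 for 0. At an unadjusted limma p under 0.05, 15 of the 25 were lower, against 10.5% of all genes. The authors' deposited table called 4 of them lower by adjusted p, against 2.79% of all genes. Cenpa was at -1.37, Ccnb2 at -1.91 and Hmmr at -1.46. The mean log2 level of the 25 mitotic genes was 7.89, 8.06, 7.90, 8.98 and 7.82 in Osmr-/- 1, 2, 3, 5 and 6. It was 8.87 to 9.29 in WT. No erythroid or mitotic marker was at 0 in all libraries. The part of either list in the results on the 47 genes was not tested.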

How the data were processed

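RNA from 11 libraries of sorted stem cells, 5 Osmr-/- and 6 WT, was analysed. Per the submitters' processing notes, Trimmomatic 0.36.6, FastQC 0.72, HISAT2 2.1.0, HTSeq 0.9.1, a DESeq2 wrapper 2.11.40.6 and the mm10 build were used. Not given in the sources used here are the annotation that HTSeq counted on and whether strand was used. The exons of 15 of the 47 genes overlap a gene on the opposite strand. On the same strand, exons of Ncl, Gnl3, Nop56, Nop58, Ppan and Eif4a1 overlap snoRNA genes. Those of Nme1 overlap the protein-coding gene Gm20390. The deposited signal is the authors' read count per gene divided by a size factor. The authors also deposited log2 scale values (regularised and variance-stabilised). Their comparison table holds log2 fold changes, a test score (the Wald score) and p-values as deposited by the authors. Its 615 genes past an adjusted p of 0.05 all have the sign of the WT mean minus the Osmr-/- mean, so its fold changes are printed here with the sign turned. Each library's values were multiples of 1 step, and whole reads were recovered from them to within 1.4e-09. Intervals and floors would cover counting error only.

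From log2(normalised count + 1), limma 3.58.1 (lmFit, eBayes with trend, two-sided) in R 4.3.3 compared Osmr-/- with WT with genotype alone, over genes with at least 10 in at least 5 libraries, at a Benjamini-Hochberg adjusted p of 0.05. Where no tool is named, an adjusted p is limma's. Other settings tried were a pseudocount of 0.5 or 10, a filter at 50 or none, scaling by TMM or quantiles, both kinds of the authors' log2 values, edgeR 4.0.16 and DESeq2 1.42.0 on recovered reads, a replicate block, the number-set covariate, each number set alone and each library left out. The code was tested on simulated data with known changes.

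The gene set, the other lists and the number sets were chosen with earlier results of these data known. Genes given in every library are Myc, Max and the 6 of lowest limma p in each direction. Of each other pathway list and of the mitotic list, up to 3 genes of lowest p are named. For each gene given in every library that holds CACGTG in a promoter, the promoter with the motif closest to the start site is printed. Exon lengths, positions and overlaps are from GENCODE M21 on GRCm38. Protein sequences are not used here.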

Additional observations from a re-analysis of the deposited data

Results flagged for a closer look

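In 5 of the 94 sets of values checked (the 47 genes in each genotype), 1 library lay far from the others of its group, and chance does so in about 1 of 20 groups. Of these, 3 are low values of Osmr-/- 6. Nhp2 had 2577 normalised counts there, against 5511 to 6487 in the other Osmr-/- libraries. Pes1 had 50.7 in Osmr-/- 6, against 147 to 187 in the others. Nme1 had 1568 in Osmr-/- 6, against 2316 to 2601 in the others. In WT HSC, Npm1 had 28222 in WT 3, against 15894 to 17613 in the other WT libraries. Wdr74 had 785 in WT 1, against 239 to 355 in the others. The library total was also far from the rest in WT 1, with 22.1 M reads against 9.89 to 13.6 M reads in the other WT libraries.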

How the results depend on the processing

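Of the 47 genes, 26 kept the sign of their log2 fold change under every alternative run, and limma called 0 of them by adjusted p except where named here. Over all genes, limma called 1 higher and 2 lower in Osmr-/- HSC. The lower count was 1 with a pseudocount of 0.5 and 1 with edgeR. Counts higher and lower were 13 and 42 with a pseudocount of 10, 14 and 42 with quantile scaling (Eif5a was then 1 of the lower), 18 and 51 with regularised and 17 and 49 with variance-stabilised values. They were 238 and 440 with DESeq2 (1 and 2 of the 47) and 133 and 204 with the number-set covariate (1 and 3 of the 47). They were 0 and 0 without a filter, with a filter at 50 and within either number set, where 1109 and 1670, 933 and 1189, 1192 and 1741 (numbers 1 to 3) and 590 and 794 genes (numbers 4 to 6) had an unadjusted p under 0.05. With each library left out the counts ran from 0 to 30 higher and 0 to 92 lower, both highest without WT 6, with 0 of the 47 in each, and the median over the 47 from -0.34 to -0.19. The label numbers were not taken to pair the samples, since same-number correlations were 0.020 to 0.099 and 1 of 5 Osmr-/- libraries correlated best with its own number. The replicate block called 1 gene higher and 5 lower, 0 of them in the set. Signs turned for Dkc1 with quantile scaling (-0.027), for Max (-0.0024) and Ddx18 (-0.060) with the replicate block, and for Ddx18 with the number-set covariate (-0.017). In numbers 1 to 3 they turned for Max (-0.30), Npm3 (0.13), Nolc1 (0.35), Tcof1 (0.082), Polr1a (0.37), Nhp2 (0.10), Rrp9 (0.45), Nop2 (0.032), Ddx18 (-0.25) and Prmt3 (-0.051). In numbers 4 to 6 they turned for Npm1 (-0.060), Fbl (-0.17), Dkc1 (-0.23), Noc4l (0.030), Rrs1 (-0.19), Mrto4 (-0.49), Eif4a1 (0.038) and Eif4e (0.24). With single libraries left out they turned for Ddx18 (-0.13 to 0.21), Dkc1 (-0.034 to 0.12), Eif4e (-0.24 to 0.16), Fbl (-0.025 to 0.20), Gar1 (-0.10 to 0.23), Max (-0.031 to 0.20), Mrto4 (-0.057 to 0.48), Nhp2 (-0.21 to 0.13), Nme1 (-0.26 to 0.038), Nolc1 (-0.37 to 0.037) and Utp20 (-0.19 to 0.35). The cause of these shifts was not tested.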
